A study of Marchantia polymorpha with 9 samples.

Results

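The wild type described here is BoGa, a laboratory accession of the liverwort Marchantia polymorpha, sampled as a thallus of 3 weeks. Its members are the 3 libraries whose labels give the genotype BoGa, out of 9 libraries in the series; the other 6 carry Mpb-gata1-1 or Mpb-gata1-2 and were not used. Each library came from 3 entire plants pooled before extraction. The plants received no treatment and grew on 1/2 Gamborg's B5 medium with 16 h of light and 8 h of dark at 22 °C and 40 µmol m-2 s-1. RNA was made into libraries with a stranded mRNA kit. Since a library is a pool of entire plants, fewer cells of a type and less RNA per cell cannot be told apart in any value below, and differences between plants of one pool are not seen. The labels do not give the sex of the plants.

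The thallus is the haploid, dominant body of a liverwort. It grows from notches at its tips and carries air chambers on its upper face, rhizoids on its lower face, gemma cups for clonal spread and scattered oil body cells. A cuticle and phenolic compounds protect its surface, as in other land plants. Sex is set by chromosomes, with the U chromosome in female plants and the V chromosome in male plants.

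The 3 libraries held 33982770, 32662103 and 37333830 total gene reads in replicates 1, 2 and 3, of which 98.2% to 98.3% were unique to a gene. The deposited tables list 20574 genes, and 2987 of them had no read in any of the 3 libraries. Replicate 3 stood apart from the other two before any gene was considered by name. CPM stands for the reads of a gene per 1000000 gene reads. Across the 10952 genes whose mean reached 5 CPM, Pearson's r of log2 CPM was 0.995 between replicates 1 and 2, 0.983 between 1 and 3, and 0.988 between 2 and 3; these are descriptions across genes, which are not independent. For the same pairs, chi-square per degree of freedom stood at 11.9, 56.1 and 34.2, so each pair differed by more than counting error and all 3 were kept as separate samples. Levels between libraries are given as CPM scaled by TMM, whose factors lay between 0.997 and 1.01, and levels between genes as deposited TPM, which divides by the length of the whole gene region with its introns.

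Of the 20574 genes, 13072 had at least 1 TPM in each library, 9133 at least 10 TPM, 1490 at least 100 TPM and 136 at least 1000 TPM. Expression was concentrated in few genes: 436 genes made up 50% of all TPM and 5195 made up 90%. The 20 most abundant genes held 13.3% ± 0.585 of TPM (SD, n = 3). In replicates 1, 2 and 3 the share of these 20 genes was 12.8%, 13.3% and 13.9%.

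The most abundant gene, Mp4g10850 on chromosome 4, had 16738, 17845 and 19642 TPM in replicates 1, 2 and 3. Mp2g12030 followed with 10607, 10407 and 10491 TPM, and Mp2g07490 with 10099, 10402 and 9012 TPM. These 3 genes carry no symbol in the annotation table used here, and the same holds for all but 1 of the 20. The exception is MpEF1 (Mp3g23400), a translation elongation factor gene that serves as a reference in PCR work, at 5426, 5495 and 5488 TPM. Several of the 20 lie side by side: Mp2g12010, Mp2g12020 and Mp2g12030 sit on the plus strand of chromosome 2, between positions 12201117 and 12210494 of the deposited tables, with means of 8150, 6731 and 10502 TPM. Mp4g15070 and Mp4g15080 lie close together on chromosome 4 with means of 3842 and 6883 TPM, and Mp4g06030 and Mp4g06050 with 4059 and 8336 TPM.

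The 20 most abundant genes kept close levels among the libraries. Their range, which is the highest over the lowest library in CPM with 2 reads added to each count, lay between 1.03-fold and 1.52-fold. Mp7g09180 had the widest one, with 3957, 4549 and 5757 TPM, lowest in replicate 1 and highest in replicate 3.

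**Figure D1:**
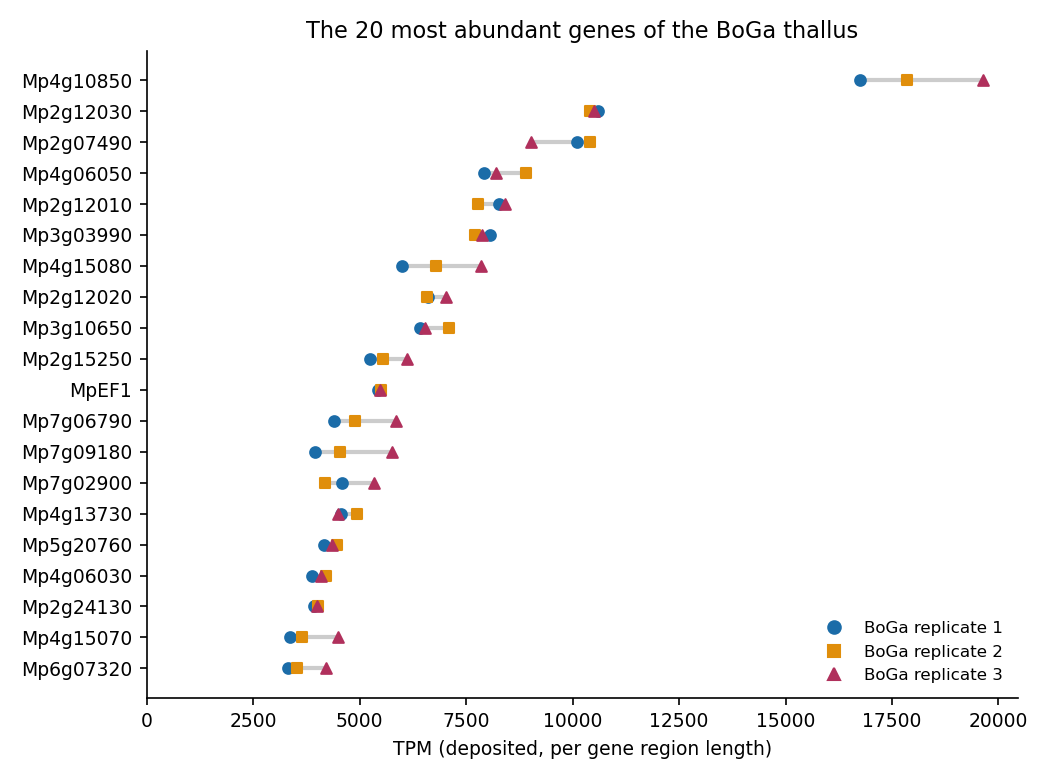
Deposited TPM (horizontal axis) of the 20 genes with the highest mean TPM, with 1 point per BoGa library and a grey bar from the lowest to the highest. Mp4g10850 lies apart from the others at 16738 to 19642 TPM, and the 3 points of MpEF1 nearly coincide.

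Apart from MpEF1, the genes with a symbol described next are abundant members of their gene groups. MpPIP2, an aquaporin of the plasma membrane, had 3384, 3558 and 3644 TPM, and MpTIP1, an aquaporin of the vacuole membrane, 2291, 2925 and 3247 TPM. MpCAT2, a catalase, had 1950, 1887 and 1688 TPM. MpRACK1, a ribosome-bound scaffold, had 1504, 1522 and 1658 TPM. MpACTIN7 and MpACT1, both actins, averaged 1484 ± 120 and 1320 ± 92.2 TPM (SD, n = 3 each). MpGH16.42, of a family that cuts and rejoins cell wall glucans, averaged 972.8 ± 92.6 TPM. MpAPX1, an ascorbate peroxidase, averaged 681.6 ± 23.9 TPM, and MpGST24, a glutathione transferase, 594.0 ± 9.59 TPM.

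The genes used as PCR references differed in how steady they were. MpEF1 had a range of 1.06-fold, MpAPT (adenine phosphoribosyltransferase) 1.08-fold, MpACT1 1.11-fold, MpACTIN7 1.14-fold, MpRACK1 1.15-fold, MpACT2 1.17-fold and the tubulin gene MpTUB2 1.21-fold. Over all 10952 genes the median range was 1.14-fold. MpTUB4, another tubulin gene, was low, at 4.96, 6.05 and 7.14 TPM, and had a range of 1.499-fold.

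Most markers of the thallus had reads, and the 5 sporophyte markers had a low summed level. MpNOP1, needed for air chambers, had 34.6, 33.0 and 39.9 TPM in replicates 1, 2 and 3. All 5 gemma cup and gemma markers had reads, with a summed level of 108, 91.8 and 116 TPM; MpGCAM1, needed for gemma cup formation, had 3.35, 3.09 and 3.86 TPM, and MpKAR, needed for gemma initiation, 15.2, 13.4 and 19.5 TPM. The rhizoid regulator MpRSL1 (MpBHLH14) had 13.1, 12.6 and 13.5 TPM, whereas MpFRH1, the microRNA gene that limits rhizoid formation, had 0.555, 0.587 and 0.407 TPM. These libraries of messenger RNA do not show mature microRNA.

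The 5 oil body markers summed to 15.8, 15.5 and 19.4 TPM. MpC1HDZ, needed for oil body cell formation, had 3.84, 4.14 and 7.28 TPM, high in replicate 3, while MpMYB02, which controls bisbibenzyl synthesis, had 2.44, 2.26 and 2.51 TPM. Of the 6 apical notch markers, 5 could be matched, and they summed to 122, 121 and 134 TPM; MpYUC2, an auxin synthesis gene, had 25.1, 27.1 and 29.8 TPM and MpCLV1, a receptor kinase that acts at the notch, 43.3, 45.8 and 56.4 TPM. MpLAXR, a regulator of regeneration, was barely detected at 0.148, 0.211 and 0.183 TPM.

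The markers of sexual branches and germ cells gave a mixed picture. MpBNB (MpBHLH20), which starts germ cell formation, had 0 reads in each of the 3 libraries, which allows up to 0.0289 CPM over the 103978703 reads of the group. MpPRM, a sperm protamine gene, had 0, 0 and 1 read, and MpDUO1, a regulator of sperm formation, 1.26, 0.990 and 1.14 TPM. MpRKD, known for its part in egg cell formation, was well expressed at 116, 110 and 114 TPM, and MpCEN1, a centrin gene, at 84.8, 87.2 and 73.6 TPM. Of 8 markers of this class 6 were matched. The 5 sporophyte markers, MpKNOX1, MpKNOX2, MpBELL1, MpBELL3 and MpBELL4, summed to 3.00, 2.38 and 2.37 TPM, and MpKNOX2 had 0, 1 and 0 reads. MpBELL4 was detected with 136, 119 and 140 reads, which is 0.887, 0.788 and 0.803 TPM.

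The spread among the 3 libraries was narrow for most genes. The median range was 1.14-fold, 90% of the 10952 genes stayed within 1.42-fold and 99% within 2.10-fold. The median coefficient of variation was 7.01%, against 2.68% that counting error alone would give. By a chi-square test of the 3 read counts with Benjamini-Hochberg adjustment, 7108 of the 10952 genes (64.9%) differed beyond counting error; this compares these libraries with each other and says nothing of a condition. The common biological coefficient of variation from edgeR was 11.2%.

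A range of at least 2-fold was reached by 152 of the 10952 genes (1.39%), of which 41 have a symbol. Counts of 2-fold genes in the groups below stand beside this share of 1.39%. That share is not matched for level, and among genes with 5 to 10 CPM it was 4.54%. A range of at least 1.5-fold was reached by 788 genes (7.20%), of 3-fold by 15 and of 4-fold by 5, and the largest was 5.18-fold. All 152 also differed beyond counting error. The gene just inside the 2-fold limit had a range of 2.0002-fold and the gene just outside 1.9993-fold, so the limit falls within a continuous distribution. Of the 152, 18 had under 90% unique reads and 19 overlap another gene.

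Spread depended on level at the low end and hardly above it. Among the 1211 genes with 5 to 10 CPM the median coefficient of variation was 10.99% and 4.54% of genes reached 2-fold. Among the 5098 genes with 10 to 50 CPM it was 7.10%, with 1.22% at 2-fold, and among the 2323 genes with 50 to 100 CPM 6.12%, with 0.732%. It stayed at 6.19% in the 85 genes with 1000 CPM or more, where counting error falls to 0.437% and no gene reached 2-fold.

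**Figure D2:**
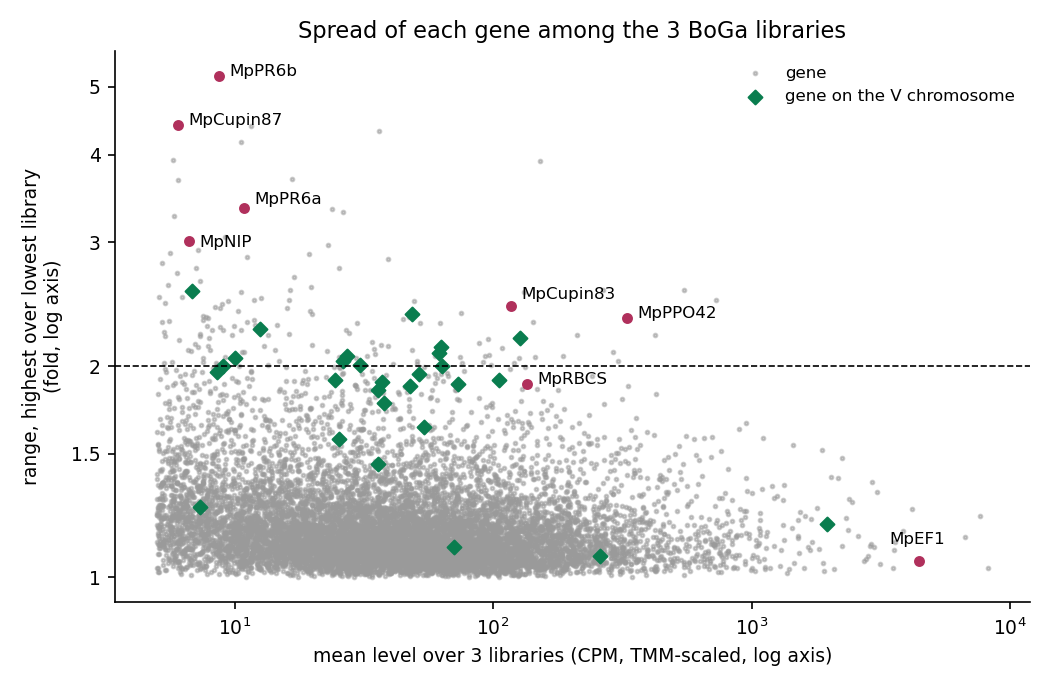
Range among the 3 BoGa libraries (vertical axis, highest over lowest library, log axis) against the mean level (horizontal axis, TMM-scaled CPM, log axis) of the 10952 genes with at least 5 CPM; the dashed line marks 2-fold. Most genes lie below 1.42-fold at every level, and 11 of the 28 genes on the V chromosome (green) lie at or above 2-fold.

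Replicate 3 was the highest or the lowest library in 144 of the 152 genes (94.7%), compared with 81.0% of all 10952 genes. It was the highest library in 67 of the 152 and the lowest in 77, so the genes moved in both directions. In 113 of the 152, replicates 1 and 2 lay within 1.5-fold of each other. The same share over all 10952 genes was not counted. Over those genes the median difference between replicates 1 and 2 was 1.06-fold, so closeness of these 2 libraries is not particular to the 152. Between replicates 1 and 2 alone, 15 genes differed at least 2-fold, against 129 between replicates 1 and 3 and 50 between 2 and 3. Without replicate 3 the common biological coefficient of variation was 6.63% and the median coefficient of variation 4.10%. Split by the length of the gene region into quartiles, the median log2 level of replicate 3 minus the other two lay between -0.01 and 0.03.

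Replicate 2 was the highest library in 25 of the 152 genes, and the proteinase inhibitors led them. MpPR6b (Mp8g12150), of the family of pathogenesis-related proteins that inhibit proteinases, had 5.04, 17.8 and 3.38 CPM in replicates 1, 2 and 3, the largest range of all at 5.18-fold. MpPR6a (Mp8g09630) had 6.001, 20.3 and 6.45 CPM (3.35-fold) and MpPR6c (Mp8g12160) 4.30, 12.7 and 4.75 CPM (2.93-fold). In each of the 3 genes replicate 2 was far above both other libraries. MpPR6b and MpPR6c are neighbours on chromosome 8, from 13677824 to 13679790 and from 13748530 to 13750403, and MpPR6a lies elsewhere on the chromosome, from 11174882 to 11176796. Between 96.7% and 100% of their reads were unique. Between replicates 1 and 2 alone MpPR6b differed 3.50-fold and MpPR6a 3.35-fold, so their spread did not rest on replicate 3.

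Of 10 pathogenesis-related genes with at least 5 CPM, 3 (30.0%) reached 2-fold, all 3 of them MpPR6 genes, against 1.39% of all genes. In 8 of the 10 (80.0%) replicate 2 was highest, whereas 23.8% of all genes were highest in it. MpPR1o, a secreted protein of the PR1 family, was the most abundant at 333, 425 and 324 TPM, again highest in replicate 2, with a range of 1.32-fold. MpPR5b, a thaumatin-like protein, had 86.0, 84.6 and 82.0 TPM and a range of 1.02-fold.

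A few more genes shared the high level in replicate 2. MpCupin87 had 5.33, 10.5 and 2.34 CPM, the second largest range among named genes at 4.41-fold. MpPKS/CHS13, a polyketide synthase of the chalcone synthase family, had 7.67, 13.3 and 5.45 CPM. MpPOD25, a class III peroxidase, had 4.83, 11.3 and 6.55 CPM. MpNBS-LRR11, of the intracellular immune receptor family, had 4.51, 7.83 and 3.36 CPM, and MpCYP829F1, a cytochrome P450, 3.57, 7.95 and 4.67 CPM. MpGST29 had 5.36, 13.1 and 6.74 CPM, but 8.02% of its reads were unique, so its level cannot be separated from that of its near copies.

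**Figure D3:**
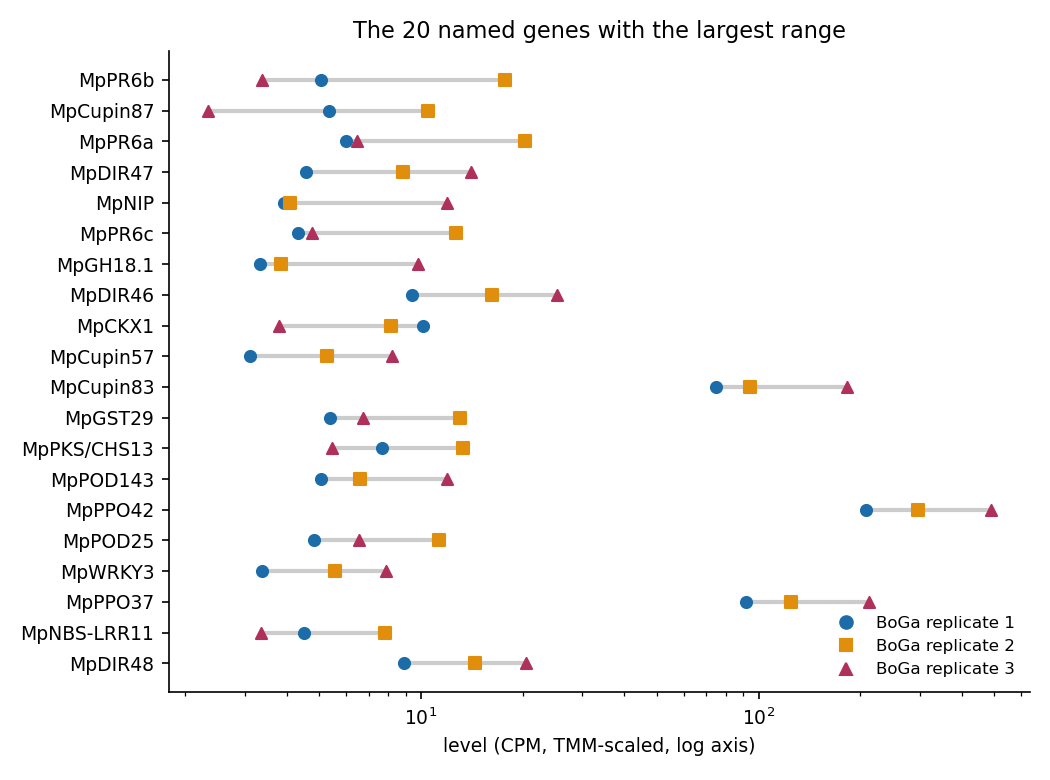
TMM-scaled CPM (horizontal log axis) of the 20 named genes with the largest range, with 1 point per BoGa library and a grey bar from lowest to highest. Replicate 2 is highest in MpPR6a, MpPR6b, MpPR6c, MpCupin87, MpGST29, MpPKS/CHS13, MpPOD25 and MpNBS-LRR11, and in most of the others replicate 3 is highest.

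Dirigent genes formed the clearest run of neighbours. Dirigent proteins steer the coupling of phenoxy radicals in the synthesis of lignans and related phenolics. MpDIR47 (Mp3g24150) had 4.57, 8.84 and 14.1 CPM in replicates 1, 2 and 3 (3.06-fold), MpDIR46 (Mp3g24160) 9.43, 16.2 and 25.3 CPM (2.68-fold) and MpDIR48 (Mp3g24140) 8.90, 14.5 and 20.4 CPM (2.29-fold). The next 2 genes of the same family, MpDIR45 and MpDIR44, had 6.59, 8.62 and 11.8 CPM and 3.89, 5.31 and 7.95 CPM. All 5 were lowest in replicate 1 and highest in replicate 3. They lie in a row on chromosome 3 between 25600852 and 25619354, on both strands, and all their reads were unique. On either side, Mp3g24130 had 3.19, 3.71 and 3.90 CPM, the same order with a range of 1.22-fold, and Mp3g24190 had no read. This stretch was chosen after its values were seen.

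The most abundant dirigent genes lie elsewhere and had narrow ranges. MpDIR17 had 366, 350 and 390 TPM with a range of 1.13-fold, and MpDIR5 had 260, 255 and 241 TPM with a range of 1.05-fold. Of 30 dirigent genes with at least 5 CPM, 4 (13.3%) reached 2-fold, against 1.39% of all genes. All 4 lie in the run on chromosome 3. The median range of the 30 was 1.31-fold, compared with 1.14-fold over all genes.

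Polyphenol oxidases, which oxidise phenols to quinones, had the widest median range of the groups listed here apart from the V chromosome, at 1.42-fold over 24 genes. MpPPO42, the most abundant, had 208, 296 and 487 CPM in replicates 1, 2 and 3, and MpPPO37 had 92.0, 125 and 213 CPM. Both ranges, 2.34-fold and 2.31-fold, were large for genes of that level, since 16 of the 2062 genes with 100 to 500 CPM reached 2-fold. MpPPO22 and MpPPO72 were steady, with 159, 178 and 150 TPM and with 105, 101 and 112 TPM. In all, 2 of the 24 genes (8.33%) reached 2-fold, against 1.39% of all genes. Replicate 3 was highest in 17 (70.8%) and replicate 1 lowest in 18 (75.0%), compared with 40.7% and 34.2% of all genes. Of the 24, 11 had under 90% unique reads, since the family has near copies.

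Class III peroxidases, which oxidise phenolics in the wall, included 91 genes at 5 CPM or more. Of these, 4 (4.40%) reached 2-fold, against 1.39% of all genes. MpPOD143 had 5.06, 6.60 and 11.95 CPM, MpPOD3 25.5, 30.1 and 54.6 CPM and MpPOD167 63.7, 102 and 128 CPM, all highest in replicate 3; MpPOD25 was described above. The abundant members MpPOD89 and MpPOD41 had 359, 396 and 334 TPM and 210, 207 and 215 TPM, with ranges of 1.17-fold and 1.07-fold. Mp8g09600, the unnamed neighbour of MpPOD167 on chromosome 8, had 48.1, 81.5 and 97.2 CPM in the same order.

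Cupins, a large family that holds the germin-like proteins of the wall, had 36 genes at 5 CPM or more. The 3 of them at 2-fold (8.33%, against 1.39% of all genes) followed different libraries. MpCupin87 was highest in replicate 2. MpCupin83 had 74.9, 94.3 and 183 CPM and MpCupin57 3.10, 5.25 and 8.19 CPM, both highest in replicate 3. MpCupin83, with a mean of 230 TPM, is among the 4 most abundant cupins. The other 3, MpCupin11, MpCupin9 and MpCupin10, had ranges of 1.19-fold to 1.27-fold, and all 3 had under 90% unique reads.

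Genes of phenylpropanoid and flavonoid synthesis were spread in the other direction, lowest in replicate 3. Of 59 genes with at least 5 CPM, 37 (62.7%) were lowest in replicate 3, whereas 40.2% of all genes were. The summed level of all 76 genes of the group was 4332, 4285 and 3547 TPM in replicates 1, 2 and 3. MpC4H1, the cinnamate hydroxylase that follows phenylalanine ammonia-lyase in the pathway, had 639, 622 and 488 TPM. MpPKS/CHS15 had 222, 192 and 120 CPM and MpDFR-like12, of the dihydroflavonol reductase family, 401, 347 and 261 CPM. MpHCT, a hydroxycinnamoyl transferase, went the other way with 218, 259 and 264 CPM.

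Of the 59 genes 3 (5.08%) reached 2-fold, against 1.39% of all genes. All 3 had means between 8.78 and 8.96 CPM, and 4.54% of genes with 5 to 10 CPM reached 2-fold. These 3 lie between positions 16232292 and 16282802 of chromosome 4, in a cluster of synthase and lyase genes. MpPKS/CHS13 had 7.67, 13.3 and 5.45 CPM, MpPAL7 8.78, 12.2 and 5.35 CPM and MpPAL6 10.9, 10.6 and 5.40 CPM. PAL is phenylalanine ammonia-lyase, the entry enzyme of the pathway. In all 3 genes replicate 3 was lowest, although 46.0% of the reads of MpPAL7 and 34.5% of those of MpPAL6 were unique and MpPAL6 overlaps another gene. The neighbours, named after their values were seen, differed among themselves: MpPKS/CHS12 was steady at 11.2, 12.9 and 10.7 CPM, MpPKS/CHS14 had 112, 103 and 78.1 CPM and MpPAL4 27.4, 38.9 and 26.6 CPM.

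In the group of cuticle and lipid transfer genes, 21 of 29 genes (72.4%) were highest in replicate 3, whereas 40.7% of all genes were. The median range was 1.30-fold and the summed level of all 39 listed genes was 2308, 2376 and 2778 TPM. MpLTPG4, a lipid transfer protein with a membrane anchor, had 9.72, 12.9 and 20.5 CPM. MpCER3a, of the family that makes wax alkanes in Arabidopsis, had 29.7, 33.8 and 59.9 CPM. These 2 of the 29 genes (6.90%) reached 2-fold, against 1.39% of all genes. MpLTP-like66 was the most abundant, with 570, 602 and 805 TPM, and its difference alone is a large part of that in the summed level. MpFAE1 and MpFAE2, which elongate very long fatty acids, were steadier, with ranges of 1.12-fold and 1.20-fold.

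Expansins, which loosen cell walls during growth, had a median range of 1.34-fold over 24 genes, and 17 (70.8%) were highest in replicate 3 and 17 lowest in replicate 1, whereas 40.7% and 34.2% of all genes were; none reached 2-fold. MpExpansin6 had 186, 184 and 250 TPM, MpExpansin2 126, 135 and 179 TPM and MpEXL2 7.88, 10.004 and 14.1 CPM. MpExpansin15 had 201, 220 and 281 TPM, but it overlaps another gene and none of its reads was unique. Of the 87 other cell wall enzymes, none reached 2-fold and 54 (62.1%) were highest in replicate 3. MpCE8.3 and MpCE8.7, pectin methylesterases, had 183, 211 and 312 CPM and 453, 520 and 627 CPM, and MpPL1.3, a pectate lyase, 36.3, 40.0 and 65.2 CPM. MpCSLD9, a cellulose synthase-like gene, had 899, 805 and 811 CPM.

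Among 81 glycoside hydrolases 1 (1.23%) reached 2-fold, near the 1.39% of all genes. MpGH18.1, of the GH18 chitinase family, had 3.34, 3.84 and 9.78 CPM, with replicates 1 and 2 close and replicate 3 high. MpGH19.15 and MpGH19.5, of the other chitinase family, had 412, 427 and 424 TPM and 384, 403 and 390 TPM, with no such difference.

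**Figure D4:**
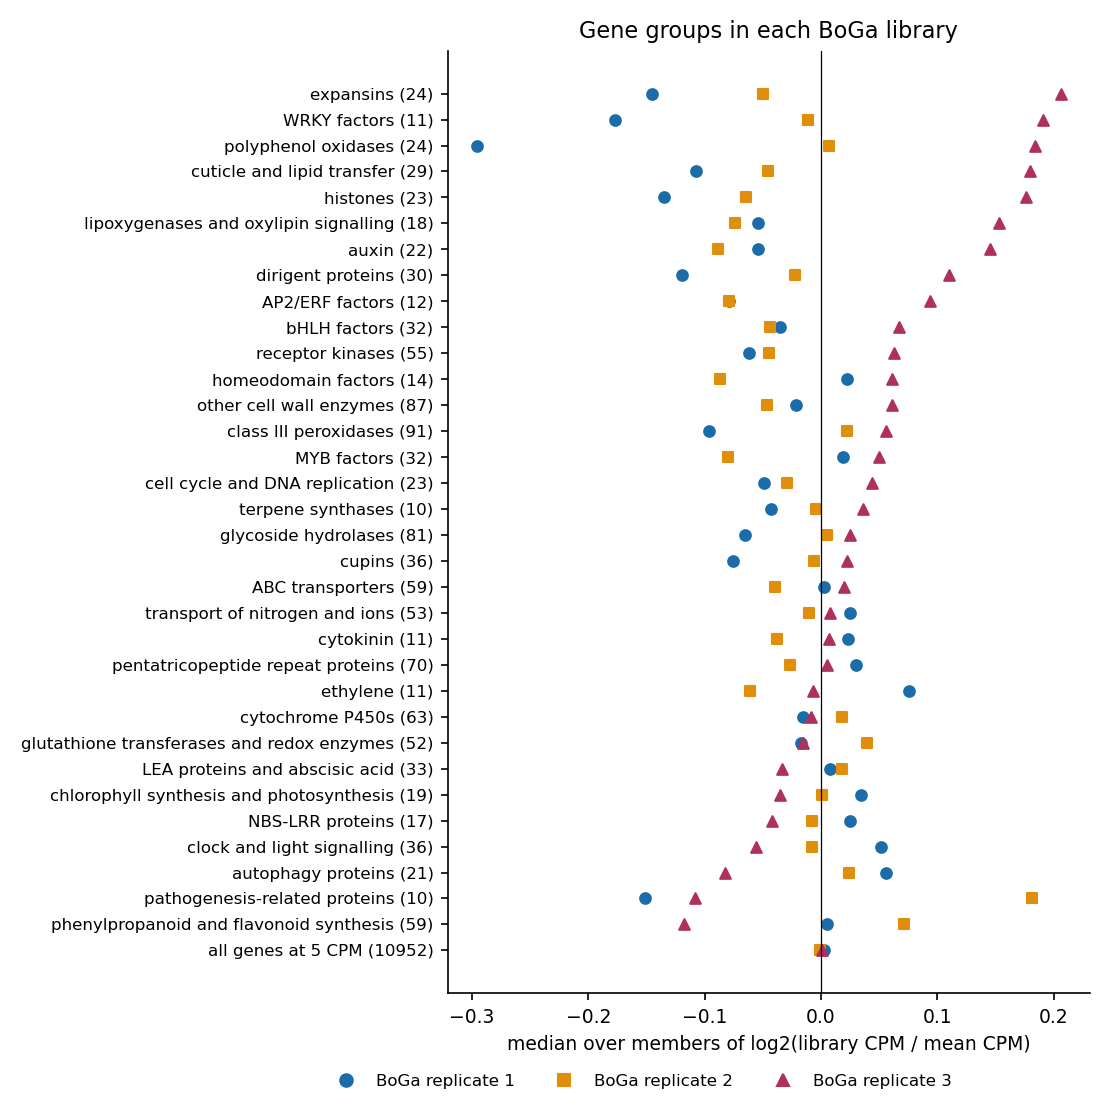
Median over the members of each gene group of log2 of a library's CPM over the mean of the 3 libraries (horizontal axis), for the groups with at least 10 members at 5 CPM, whose number stands in brackets; the V chromosome is left out. Expansins, WRKY factors, polyphenol oxidases, cuticle genes and histones lie highest in replicate 3, and phenylpropanoid and autophagy genes lowest in it. Pathogenesis-related genes lie lowest in replicate 1, with -0.151, 0.181 and -0.108 in replicates 1, 2 and 3. All genes together lie at 0.

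Of 23 histone genes at 5 CPM or more, 19 (82.6%) were highest in replicate 3, against 40.7% of all genes. Their median range was 1.27-fold, against 1.14-fold over all genes. The widest ranges were those of canonical histones, which are made during DNA replication: MpH4b had 11.2, 15.0 and 21.4 CPM in replicates 1, 2 and 3, MpH4d 12.8, 17.4 and 24.3 CPM and MpH3.1a 10.7, 14.2 and 19.99 CPM. MpH3.1c, MpH3.1e and MpH2A, named after their values were seen, had ranges of 1.72-fold, 1.65-fold and 1.67-fold. The replacement histone MpH3.3a had 141, 136 and 143 CPM, MpH2A.Z 47.7, 49.3 and 47.4 CPM and MpH2A.X.1 152, 158 and 156 CPM, with ranges of 1.04-fold to 1.05-fold. Neither kind was uniform. The H4 genes MpH4c, MpH4e and MpH4f had ranges of 1.17-fold, 1.13-fold and 1.12-fold, while the variant genes MpH2A.W.2 and MpH3.3b had 1.28-fold and 1.18-fold. MpH2A.X.2 had 31.4, 27.4 and 24.7 CPM, lowest in replicate 3. The difference between the kinds was not tested.

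Of 23 cell cycle genes at 5 CPM or more, 11 (47.8%) were highest in replicate 3, near the 40.7% of all genes, and none reached 2-fold. The summed level of all 32 listed genes was 503, 481 and 476 TPM in replicates 1, 2 and 3. MpMCM6, a subunit of the replicative helicase, had 5.33, 5.92 and 9.43 CPM, MpCYCD_1, a D-type cyclin, 11.7, 15.1 and 20.4 CPM and MpCDKB, a mitotic kinase, 4.54, 5.83 and 6.45 CPM. MpCDKA, the main cell cycle kinase, had 70.1, 70.0 and 77.5 CPM, and MpRBR, the retinoblastoma-related repressor, 298, 262 and 244 CPM.

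In the auxin group the median range was 1.24-fold, 14 of 22 genes (63.6%) were highest in replicate 3, against 40.7% of all genes, and none reached 2-fold. MpAUX1, an auxin importer, had 116, 111 and 191 CPM and MpTAA, the first enzyme of auxin synthesis, 6.41, 5.65 and 10.1 CPM, both high in replicate 3 alone. The exporters MpPIN1 and MpPIN4 had 111, 114 and 106 TPM and 99.5, 91.2 and 85.2 TPM. Of 11 cytokinin genes 2 (18.2%) reached 2-fold, in opposite directions, against 1.39% of all genes, and the median range was 1.20-fold. MpCKX1, which degrades cytokinin, had 10.1, 8.16 and 3.79 CPM, low in replicate 3, and MpCKI1 (MpCache2), a histidine kinase, 15.7, 14.0 and 30.1 CPM, high in it. The response regulators were near level, MpRRB with 152, 147 and 159 CPM and MpRRA with 376, 394 and 328 CPM. All 11 ethylene genes stayed within 1.27-fold, the widest being MpCTR1 at 113, 101 and 128 CPM.

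Of 36 genes of the clock and of light perception, 20 (55.6%) were highest in replicate 1 and 22 (61.1%) lowest in replicate 3, whereas 35.5% and 40.2% of all genes were. None reached 2-fold, and the median range was 1.14-fold. MpELF3, a clock component, had 170, 144 and 104 CPM and MpBBX2, a B-box factor, 26.1, 25.0 and 15.2 CPM. MpRR-MYB5 went the other way with 77.6, 76.7 and 130 CPM. MpPIF (MpBHLH6), which acts below phytochrome, and MpPRR, a clock repressor, had ranges of 1.03-fold and 1.11-fold.

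Photosynthesis genes with symbols were few, 19 in all, and none reached 2-fold. MpRBCS, a small subunit of Rubisco, had 97.2, 125 and 183 CPM, a range of 1.88-fold. MpSIG5, a light-responsive plastid sigma factor, had 49.5, 44.1 and 28.02 CPM, in the opposite order, while MpSIG2 had 224, 233 and 223 CPM. MpGUN5, a subunit of magnesium chelatase, had 363, 336 and 313 CPM.

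Of 33 abscisic acid and late embryogenesis abundant (LEA) genes, 18 (54.5%) were lowest in replicate 3, whereas 40.2% of all genes were. MpABA1, zeaxanthin epoxidase, had 496, 452 and 311 CPM and MpABI5B, a transcription factor of abscisic acid response, 28.6, 23.0 and 17.8 CPM. MpLEA-like18 had 9.22, 6.84 and 4.35 CPM and was the single gene of 33 in this group at 2-fold. MpHSP90-1, a chaperone gene, had 799, 759 and 539 CPM, but MpHSP90-3 had 326, 304 and 329 CPM. Autophagy genes were narrow in range, with a median of 1.10-fold over 21 genes, and none of them was highest in replicate 3; 16 (76.2%) were lowest in it. Over all genes 40.7% were highest and 40.2% lowest in replicate 3. MpATG8a, the most abundant, had 566, 545 and 510 TPM and MpATG11 166, 140 and 117 CPM.

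Transporters contained a few of the most variable genes. MpNIP, an aquaporin of the nodulin-26 type, had 3.92, 4.08 and 11.95 CPM, a 3.02-fold range that came from replicate 3 alone, and it was the single gene of 7 aquaporins at 2-fold. MpHKT, a sodium and potassium transporter, had 12.3, 6.90 and 5.43 CPM, high in replicate 1. MpNPF22, of the nitrate and peptide transporter family, had 48.9, 46.0 and 22.8 CPM, low in replicate 3. MpFRO1, a ferric reductase, had 96.0, 83.9 and 58.2 CPM and the proton pump MpHA3 1115, 1041 and 846 CPM. Of 53 genes of nitrogen and ion transport 2 (3.77%) reached 2-fold, against 1.39% of all genes, and of 59 ABC transporters none did.

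Among the transcription factor families, genes with a 2-fold range were found in the WRKY and MYB groups. Of 11 WRKY genes, a family of stress and defence regulators, 1 (9.09%) reached 2-fold, against 1.39% of all genes. This gene, MpWRKY3, had 3.37, 5.55 and 7.87 CPM. The median range of the family was 1.30-fold and 8 (72.7%) were highest in replicate 3, whereas 40.7% of all genes were. MpWRKY11 was the most abundant by far, with 491, 472 and 537 TPM. Among 32 MYB genes the single one at 2-fold (3.1%) was MpFGMYB (MpR2R3-MYB1), a regulator of female development, with 6.56, 8.25 and 15.0 CPM. The MpFGMYB locus is known to give an antisense RNA, SUF, in male plants, and whether reads were counted by strand is not given, so its reads cannot be assigned to a strand. The level of V chromosome genes, given further on, had the same order of libraries, and its part in the MpFGMYB values was not tested. None of 32 bHLH, 12 AP2/ERF or 14 homeodomain genes reached 2-fold. All 4 GATA genes were highest in replicate 3, whereas 40.7% of all genes were, and 4 genes are too few to show a family trait. Their ranges were 1.05-fold for MpGATA4 (144, 148 and 151 CPM) and 1.08-fold for MpGATA1 (46.4, 47.3 and 50.3 CPM). MpGATA5 had a range of 1.28-fold and MpGATA2 one of 1.53-fold (17.2, 17.8 and 26.3 CPM).

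The remaining groups are described together. MpMTPSL5, a terpene synthase of the microbial type, had 5.15, 7.98 and 10.9 CPM, the single gene of 10 in its group at 2-fold. Of 63 cytochrome P450 genes 2 (3.17%) reached 2-fold, MpCYP829F1, described above, and MpCYP821-like, which had 7.79, 10.3 and 17.9 CPM. Of 18 lipoxygenase and oxylipin genes none reached 2-fold, although MpLOX10 had 42.8, 52.3 and 79.1 CPM. The jasmonate-type receptor MpCOI1 had 100, 93.9 and 99.7 CPM. None of the 55 receptor-like kinase genes whose symbol holds RLK-Pelle reached 2-fold, and MpRLK-Pelle_L-LEC8 came closest with 57.0, 61.9 and 112 CPM. Outside that group MpTDR had 10.5, 12.7 and 21.4 CPM (2.03-fold) and MpRGI2 6.47, 7.64 and 13.4 CPM (2.06-fold); genes of these names encode peptide receptor kinases in Arabidopsis. None of 70 pentatricopeptide repeat genes, which act on organelle RNA, did so, and their median range was 1.12-fold.

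The most variable genes without a symbol were mainly low in replicate 3. Mp3g24550 had 17.4, 13.5 and 3.92 CPM, Mp3g09050 53.0, 43.3 and 12.2 CPM, Mp7g01970 8.81, 6.26 and 2.20 CPM and Mp8g13250 221, 178 and 56.4 CPM. Their ranges lay between 3.92-fold and 4.40-fold, and replicate 3 was well below both other libraries in each. Mp1g23210 differed in that replicate 1 was the low library, with 3.81, 11.97 and 16.0 CPM. All their reads, or 98.4% for Mp1g23210, were unique.

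Adjacent genes at 2-fold were found in 10 runs with 23 genes in all, where a run means neighbours in the order of genes with at least 5 CPM. In 5 runs all genes had the same highest and the same lowest library. Besides the dirigent run these included Mp6g16350 and Mp6g16370 on chromosome 6, with 253, 186 and 122 CPM and with 10.1, 7.46 and 4.51 CPM, and Mp7g04050 and Mp7g04060 on chromosome 7, with 3.37, 4.97 and 7.60 CPM and with 6.35, 8.93 and 14.2 CPM.

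Genes of the V chromosome had the widest spread of any chromosome. The tables list 207 V genes, of which 116 had no read and 28 had at least 5 CPM. Of these 28, 11 (39.3%) reached 2-fold, whereas the shares on chromosomes 1 to 8 lay between 0.883% and 1.63%. Their median range was 1.93-fold. In 23 of the 28, replicate 1 was lowest and replicate 3 highest, an order found in 25.1% of the 10895 genes on chromosomes 1 to 8. V genes took 0.286%, 0.334% and 0.382% of all gene reads in replicates 1, 2 and 3.

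Most V genes followed one order of libraries. For the 22 V genes that reached 1 CPM and had 95% or more of their reads unique, the median level over the gene's own mean was 0.680, 0.980 and 1.33 in replicates 1, 2 and 3. Replicate 3 over replicate 1 thus stood at 1.95, and the ratio was 1.44 for replicate 2 over replicate 1 and 1.35 for replicate 3 over replicate 2, so the order did not rest on replicate 3. MpVg00970 had 80.8, 125 and 177 CPM, MpVg00980 72.0, 107 and 138 CPM and MpVg00350 17.7, 27.6 and 36.6 CPM. In 19 of the 22 genes the 3 libraries came in this order.

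A few V genes stood outside this order. MpVg00760, with all reads unique, was steady at 256, 271 and 252 CPM. MpVg00525 and MpVg00785 were low, at 1.55, 1.20 and 1.69 CPM and at 1.20, 1.01 and 1.42 CPM. MpVg00920 and MpVg00923 had the reverse order, with 10.1, 6.41 and 3.92 CPM and with 13.6, 9.97 and 6.58 CPM; none of the reads of MpVg00920 and 71.2% of those of MpVg00923 were unique, and both overlap other genes. MpVg01240, the most abundant V gene, kept the order at 1939, 2093 and 2214 TPM, but its range was 1.19-fold. Of its reads, 94.4% were unique. None of the listed genes is placed on a U chromosome, so such genes could not be analysed here. Of 29 genes on unplaced scaffolds, 5 (17.2%) reached 2-fold, against 1.39% of all genes.

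**Figure D5:**
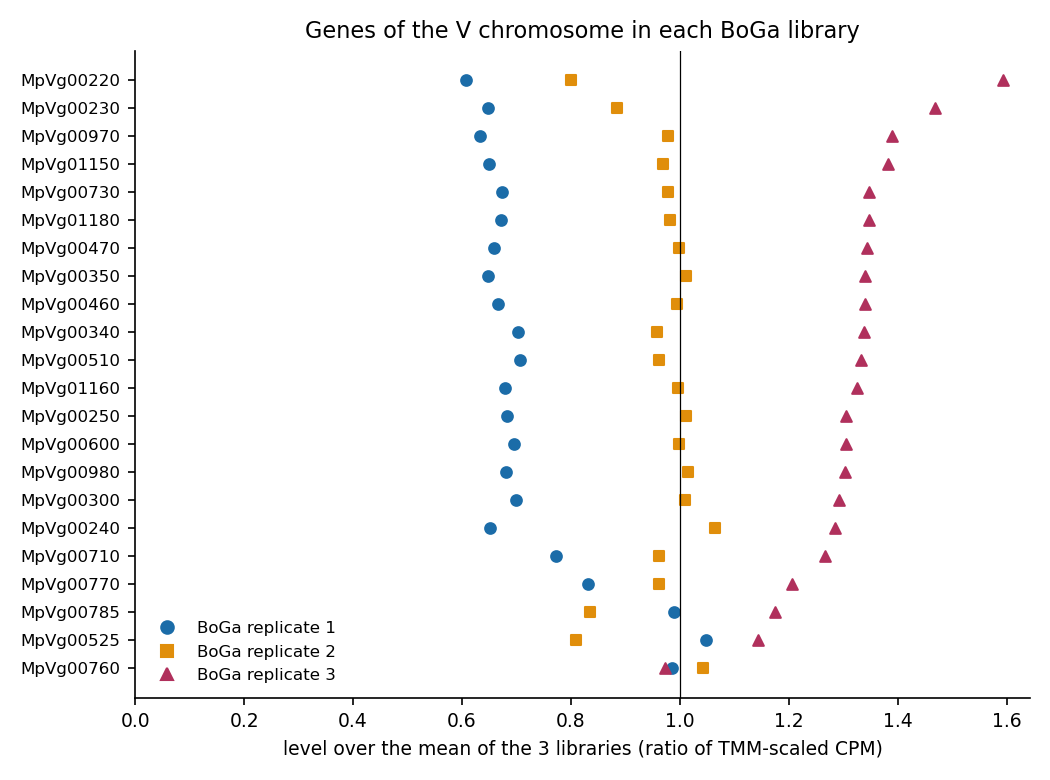
Level of 22 V chromosome genes in each BoGa library over the mean of the 3 libraries (horizontal axis, ratio of TMM-scaled CPM), for those that reached 1 CPM with 95% or more of their reads unique. Replicate 1 lies lowest and replicate 3 highest in 19 of the 22 genes, and MpVg00760 lies near 1 in all 3.

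The steadiest named genes with at least 50 CPM had coefficients of variation under 0.6%, below the counting error of their reads. MpMKK1, a MAP kinase kinase, had 158, 159 and 159 CPM and a coefficient of variation of 0.303%, against 1.35% from counting error; it overlaps another gene, and 85.2% of its reads were unique. MpHDR, the last enzyme of plastid isoprenoid precursor synthesis, had 154, 154 and 153 CPM (0.426%). MpAN, related to ANGUSTIFOLIA, which shapes cells through the cytoskeleton in Arabidopsis, had 120, 121 and 121 CPM (0.496%). MpCDC5, a MYB-like protein of the spliceosome, had 70.7, 70.5 and 69.9 CPM (0.557%). The other 6 were MpCS, MpCAS1, MpChromo1, MpCCAAT-NFYB1, MpC2H2-12 and MpGT61.3, with 0.392% to 0.519%. With 3 values each, a spread below counting error describes these libraries and ranks no gene as steadier than its near neighbours in the list.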

How the data were processed

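RNA sequencing of 3 BoGa libraries was used. Per the file headers, each deposited table gives raw counts of reads per gene (all reads of the gene and those unique to it), together with TPM and RPKM that the authors computed; RPKM served here to check the length behind TPM. Positions are those of the deposited tables. How reads were aligned, to which build and annotation, and whether by strand is not given in the sources used here. Unmapped per-sample columns numbered 0.

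Gene symbols came from an MpTak2_v7.1 assembly table, matched by locus number (17641 of 20574 genes, 3091 with a symbol); its positions were not used. Counts were scaled by TMM in edgeR 4.0.16 (R 4.3.3), which also gave the biological coefficient of variation. Ranges used log2 CPM with a prior count of 2 reads, for genes whose mean reached 5 CPM. Counting error was tested with chi-square (scipy 1.17.1), adjusted p under 0.05; reads are not independent molecules, so it covers counting error only. The test was also tried on simulated data.

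The genes named are the 20 most abundant, the 20 named and 5 unnamed with the largest range, the 10 steadiest with at least 50 CPM, up to 4 most abundant and 3 most variable of each gene group, and all markers and PCR reference genes. Other genes were named after their values were seen: neighbours in runs of 2-fold genes, V chromosome genes, further histones, MpCDKB, MpTDR and MpRGI2. The gene groups and these rules were chosen with earlier results of these data known. The spread is that between pools of 3 plants, and nothing says that the pools were grown separately.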

Additional observations from a re-analysis of the deposited data

How the results depend on the processing

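No paired analysis was possible because the 3 libraries form a single group and no test between groups was made. The count of genes with a 2-fold range was 152. It was 149 with RLE scaling, 154 with upper-quartile scaling, 147 with no factor, 141 with unique reads, 153 with a prior count of 0.5 and 148 with TPM plus 0.1. It depended on the filter: 333 genes with at least 1 CPM, 64 with at least 20 CPM and 1822 with no filter, where low counts dominate by construction. Leaving out a library gave 15 to 129 genes, 15 without replicate 3 (14 of them among the 152), 52 without replicate 1 and 129 without replicate 2. The median coefficient of variation, 7.01%, was 10.8% with no filter and 4.10% to 7.36% without a library. The common biological coefficient of variation, 11.2%, was 6.63% to 14.1%, and the 7108 genes beyond counting error were 3349 to 6297; both were lowest without replicate 3, and the cause was not tested. The share of TPM in the 20 most abundant genes moved by less than its SD, and the count of genes at 1 TPM by less than 1.5 times. Of 456 median ranges of gene groups under the alternatives, 343 stayed within the spread of the values without a library and 113 moved beyond it. At 5 to 10 CPM counting error was 6.34%, so ranges of single genes near 5 CPM are the least certain.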
